A study of Mus musculus with 2 samples.

Results

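Glycolysis turns glucose into pyruvate in the cytosol, and the 10 genes described here cover most of that route: Slc2a1, which takes glucose up, Hk2, Pfkp, Aldoa, Tpi1, Gapdh, Pgk1, Eno1 and Pkm, which carry it to pyruvate, and Ldha, which turns pyruvate into lactate. The hexokinase, phosphofructokinase and pyruvate kinase (Pkm) steps, with uptake, are the textbook control points of the pathway, whereas the other enzymes work near equilibrium. Many of these genes are classical targets of the oxygen-sensing factor HIF-1, and cultured smooth muscle cells draw much of their ATP from glycolysis. The 10 genes were chosen by name, with earlier results of these data known. All 10 were measured, and they are 10 of 32285 genes in the data. Each symbol matched 1 Ensembl gene except Aldoa, which has 2 with 54307 and 2 UMIs, and these were summed.

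The data are 1 droplet library of vascular smooth muscle cells (VSMCs) grown from mouse aorta and marked before mixing with antibodies that carry a DNA tag (hashtag), with transcripts counted as unique molecular identifiers (UMIs). The mix held 4 groups: VSMCs of young mice (12 weeks), VSMCs of old mice (58 to 78 weeks), young VSMCs given angiotensin II (AngII, 100 nM for 48 h), and old VSMCs transfected with siRNA against Piezo1 (siPiezo1, 20 nM by the methods), a stretch-activated calcium channel. All 4 are primary cultures away from the vessel wall. No replicate culture was told apart, so the groups are single cultures and differences between them were described without tests.

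At the depth used, 13045 cells held 115033686 UMIs, with a median of 7915 UMIs per cell. Tag 1 marked 3144 cells, tag 2 497, tag 3 1500 and tag 4 1529, while 5307 cells (40.7%) passed the cutoff of no tag and 1068 passed several. Tags 2 to 4 separated weakly, with medians of 67 to 113 UMIs in their own cells against 15 to 31 in cells without a tag. Group names follow the numbers 1 to 4 in the study's scheme (young, old, young with AngII, old with siPiezo1), but the scheme does not say that they number the tags, and every value therefore carries its tag. The siPiezo1 label has no check in its target: Piezo1 had 89.6 CPM (interval 82.0 to 97.9) for tag 2 and 86.9 CPM (82.4 to 91.5) for tag 4, which overlap. CPM is the UMIs of a gene per 1000000 UMIs of all cells of a tag, and every interval given is a 95% interval of the counting error only, not of the spread between cultures. Of the VSMC markers, Acta2, Tagln, Tpm2 and Myl9 were above 50 CPM in tag 1, whereas Myh11 and Des, markers of the contractile state, were at 5.27 and 1.04 CPM there. The 7 endothelial markers summed to 4.49 to 9.12 CPM across the tags and the 8 macrophage markers to 16.2 to 26.0 CPM, with C1qa at 0 in all. The 6 fibroblast markers summed to 526 to 750 CPM, most of it Dcn, and the 7 epithelial markers to 29.0 to 104 CPM. Cells with Y-linked transcripts but without Xist were 1700 of 3144 in tag 1 and 833 of 1500 in tag 3. In tag 2 they were 97 of 497 and in tag 4 211 of 1529. The sex of the mice is not given in sources used here, and its part in the differences was not tested.

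The DNA before the start sites of 5 of the genes is shown. Slc2a1, Hk2, Pfkp and Pgk1 were taken because their levels differ most between young and old cells in either direction. Ldha was taken because its window holds the most matches, so the printed windows do not stand for all 10 genes. Tpi1 and Gapdh, which differ most between AngII-treated and untreated young cells, are not printed. Windows of 250 bases before a transcript start were taken from RefSeq (GRCm38.p6) and are printed up to where an annotated exon of the gene begins. Slc2a1 is the plus strand of chr4:119108495-119108710, Hk2 the minus strand of chr6:82774455-82774704, Pfkp the minus strand of chr13:6648778-6649021, Pgk1 the plus strand of chrX:106186850-106187099, and Ldha the plus strand of chr7:46845554-46845803, which lies before one of its 2 listed starts. Capitals mark ACGTG or GCGTG on either strand, the core letters of the hypoxia response element, and where they form CACGTG, which reads the same on both strands, it counts as 2 overlapping matches of ACGTG.
Slc2a1: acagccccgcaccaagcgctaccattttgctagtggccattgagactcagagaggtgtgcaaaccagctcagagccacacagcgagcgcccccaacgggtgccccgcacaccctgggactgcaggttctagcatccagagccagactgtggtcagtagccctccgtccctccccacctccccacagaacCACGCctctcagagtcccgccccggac
Hk2: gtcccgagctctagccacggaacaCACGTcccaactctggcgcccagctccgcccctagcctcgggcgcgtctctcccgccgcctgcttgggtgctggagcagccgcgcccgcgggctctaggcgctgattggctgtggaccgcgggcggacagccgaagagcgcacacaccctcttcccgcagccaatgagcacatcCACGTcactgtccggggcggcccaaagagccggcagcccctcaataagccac
Pfkp: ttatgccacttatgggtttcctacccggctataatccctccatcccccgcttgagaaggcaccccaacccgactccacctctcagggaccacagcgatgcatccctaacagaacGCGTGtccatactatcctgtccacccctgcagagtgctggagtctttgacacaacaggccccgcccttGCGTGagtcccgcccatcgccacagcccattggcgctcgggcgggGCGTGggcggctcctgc
Pgk1: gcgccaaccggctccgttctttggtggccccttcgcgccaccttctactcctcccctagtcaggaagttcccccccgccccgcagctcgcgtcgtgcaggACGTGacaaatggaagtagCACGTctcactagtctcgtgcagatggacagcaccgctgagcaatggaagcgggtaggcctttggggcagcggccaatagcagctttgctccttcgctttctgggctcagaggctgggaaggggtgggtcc
Ldha: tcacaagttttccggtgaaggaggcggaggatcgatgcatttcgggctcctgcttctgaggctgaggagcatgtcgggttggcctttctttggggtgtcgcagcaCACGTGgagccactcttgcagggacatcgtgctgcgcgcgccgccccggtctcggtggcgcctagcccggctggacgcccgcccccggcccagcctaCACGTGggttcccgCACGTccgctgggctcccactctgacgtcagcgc
The windows of Slc2a1, Hk2 and Pgk1 hold 2 matches each, that of Pfkp 3 and that of Ldha 5. Of the 2 in Slc2a1, 1 lies in the printed bases and the other runs on into the exon and is left in lower case. All 10 genes had a window, 16 windows in all since some have several starts, and 13 of the 16 (81.2%) held at least 1 match, against 38.6% of 32851 windows of all genes. Some windows of Aldoa and of Eno1 overlap and count the same match more than once, so the 16 are not independent. Windows of the 10 genes were also richer in G and C, with a median of 64.6% against 52.4%, and the part of base composition in the matches was not tested. The window of Tpi1 held none. A match is only a string of letters and shows no binding.

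By position in the genome (GENCODE vM21, GRCm38, with start and end of the gene), Slc2a1 is on chromosome 4 at 119108711 to 119137983, Hk2 on chromosome 6 at 82725025 to 82774454, Pfkp on chromosome 13 at 6579768 to 6648777 and Tpi1 on chromosome 6 at 124810586 to 124814296. Gapdh, like Tpi1, is on chromosome 6, at 125161715 to 125166467. All of the 10 are protein-coding. Near-identical copies could take reads from some of them. Gapdhs, Pgk2, Ldhc and the 2 Aldoa retrogenes were each at most at 1.16 CPM in tags 1 to 3, and Eno1b, the nearest copy of Eno1, at 3.88 to 6.51 CPM. Reads that match a gene and its copy equally well were not examined, so these counts do not show whether the 10 genes lost reads.

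AngII-treated young cells gave the widest contrast. Glycolytic transcripts were lower in tag 3 (young with AngII) than in tag 1 (young) along nearly the whole route, and the 10 genes together stood at 3618 CPM (3587 to 3649) against 4853 CPM (4825 to 4881), a ratio of 0.745 (0.738 to 0.753). Of the 10 genes, 8 were lower past a fold of 1.2 and 0 were higher. Of all 8444 genes tested (a mean of at least 10 CPM over the 4 tags), 19.3% were lower past that fold and 25.8% higher, so the count of lower genes was far above the background share. Since the genes were chosen with earlier results of these data known, this count is a description only. The median ratio was 0.741 for the 10 genes and 1.03 for all genes tested. Of the clusters described below, cluster 1 held 60.5% of tag 1 and 0.333% of tag 3, and cluster 7 held 17.7% and 0%. Cluster 3 held most cells of tag 3. There the sum was 3544 CPM (3394 to 3699) in 70 cells of tag 1 and 3546 (3504 to 3587) in tag 3. In cluster 4, mostly doublets, tag 1 was the higher. The part of these cell states in the contrast was not tested.

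Tpi1, which interconverts the 2 triose phosphates, had 284 CPM (278 to 291) for tag 1, 248 (235 to 261) for tag 2, 161 (155 to 168) for tag 3 and 265 (257 to 273) for tag 4. Tag 3 stood apart below the other tags, at 0.567 (0.541 to 0.594) of tag 1, and Tpi1 was the 1 gene of the 10 lower past a fold of 1.5 there, as were 7.65% of all genes tested. Gapdh, the dehydrogenase that reduces NAD+ in the pathway, had 1605 CPM (1589 to 1621) for tag 1, 1475 (1443 to 1507) for tag 2, 1130 (1113 to 1147) for tag 3 and 1420 (1402 to 1439) for tag 4, and tag 3 was again the lowest, at 0.704 (0.691 to 0.717) of tag 1. A gene often used as a constant reference thus differed between these groups beyond counting error.

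Aldoa, which splits fructose 1,6-bisphosphate, had 577 CPM (567 to 586) for tag 1 and 424 (413 to 434) for tag 3, a ratio of 0.735. Eno1, the enolase, had 198 CPM (192 to 204) and 148 (142 to 154), a ratio of 0.747. Pkm, which makes pyruvate, had 664 CPM (654 to 674) and 512 (500 to 523), a ratio of 0.771. Ldha had 761 CPM (750 to 772) and 581 (569 to 593), a ratio of 0.764. These 4 enzymes thus differed by similar factors. Pgk1, the first ATP-forming step, differed less, with 567 CPM (557 to 576) for tag 1 and 496 (484 to 507) for tag 3, a ratio of 0.874 (0.850 to 0.900) that did not pass the fold of 1.2.

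At the entry of the pathway the genes parted. Slc2a1 (GLUT1) had 56.6 CPM (53.6 to 59.7) for tag 1 and 41.3 (38.1 to 44.7) for tag 3, a ratio of 0.730 (0.663 to 0.804). Pfkp, the platelet-type phosphofructokinase, had 34.2 CPM (31.9 to 36.7) and 24.2 (21.8 to 26.9), a ratio of 0.708 (0.624 to 0.802). Hk2, which traps glucose as glucose 6-phosphate, had 107 CPM (103 to 111) and 102 (97.0 to 107), and its ratio of 0.954 (0.895 to 1.02) included 1, so no difference was detectable at this depth.

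**Figure D1:**
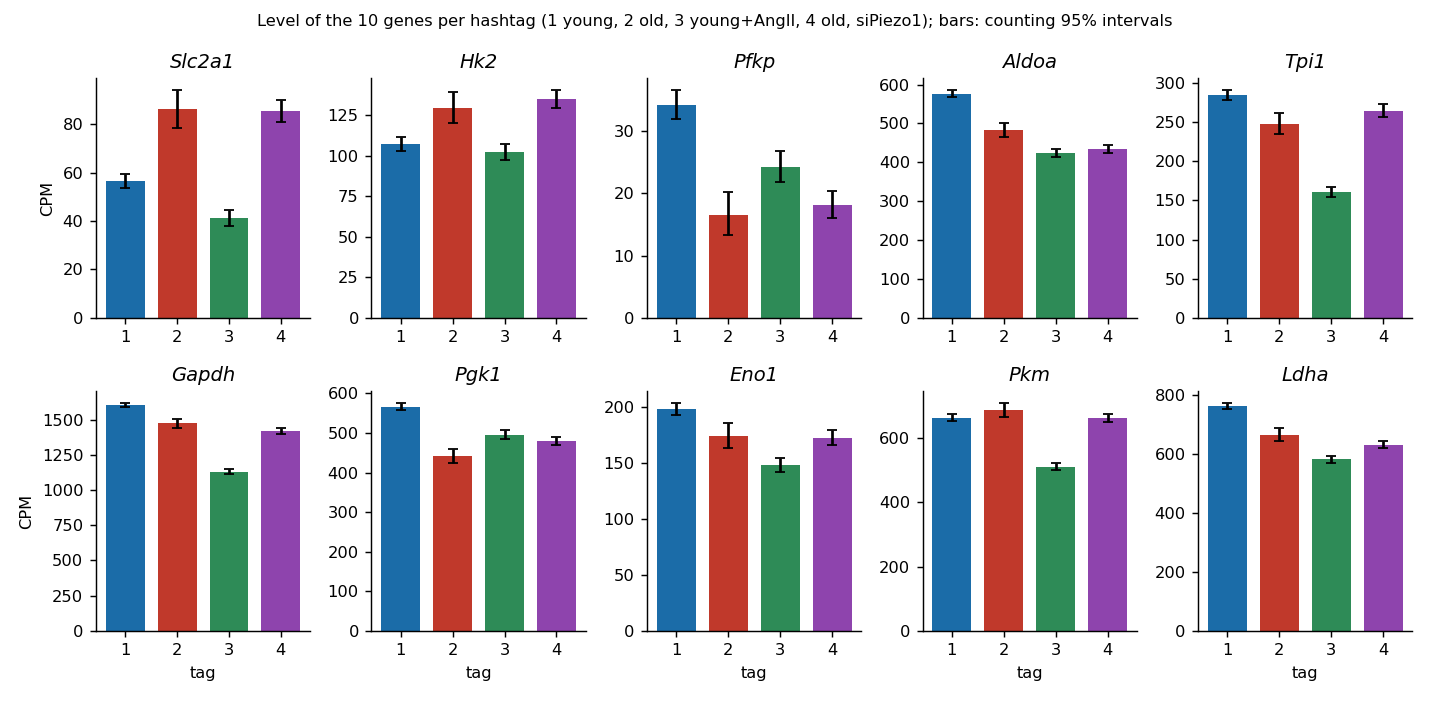
Level of each of the 10 genes in CPM (y axis, from 0, a scale per gene) in the cells of tags 1 to 4 (x axis), with bars for the 95% counting interval; there is 1 culture per tag. Tag 3 has the lowest bar for 8 of the 10 genes, and for Slc2a1 and Hk2 tags 2 and 4 stand above tags 1 and 3.

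The enzymes that share these steps pointed the same way. Of 28 other genes of glycolysis, glucose uptake and lactate export, 9 were expressed enough to compare, and 7 of these were lower in tag 3 past a fold of 1.2 and 0 higher, with a median ratio of 0.704. Slc16a3, the lactate exporter MCT4, was at 35.7 CPM in tag 1 and 16.0 in tag 3, a ratio of 0.448 (0.387 to 0.518). Pfkl, the liver-type phosphofructokinase, was at 45.4 and 25.4 CPM, a ratio of 0.559 (0.496 to 0.628). Neighbouring routes differed less. In the pentose phosphate pathway 0 of 6 genes were lower and 1 higher, Taldo1, and in the list of pyruvate and TCA cycle genes 8 of 26 were lower and 3 higher, with a median of 0.955. Within that last list the kinases that hold back pyruvate dehydrogenase differed among themselves, since Pdk1 had a ratio of 0.438 (0.349 to 0.546) and Pdk4 one of 1.80 (1.63 to 1.99).

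Most transcripts in a list of HIF pathway and hypoxia-response genes were lower as well. Hif1a, the oxygen-regulated subunit of HIF-1, had 346 CPM for tag 1, 387 for tag 2, 194 for tag 3 and 358 for tag 4, and tag 3 stood at 0.563 (0.539 to 0.587) of tag 1. Of 18 genes of this list compared, Hif1a among them, 12 were lower in tag 3 past a fold of 1.2 and 1, Vegfa, was higher. The median was 0.694. Bnip3, a mitophagy receptor, had a ratio of 0.331 (0.303 to 0.362), and Higd1a, a small mitochondrial protein, one of 0.589 (0.563 to 0.616). The other named regulators did not share 1 direction. Myc, a transcription factor that can raise glycolytic genes, was at 25.4 CPM in tag 1 and 32.8 in tag 3, a ratio of 1.29 (1.15 to 1.46), and Txnip, which restrains glucose uptake, was at 54.0 and 38.6 CPM, a ratio of 0.715 (0.647 to 0.790).

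**Figure D2:**
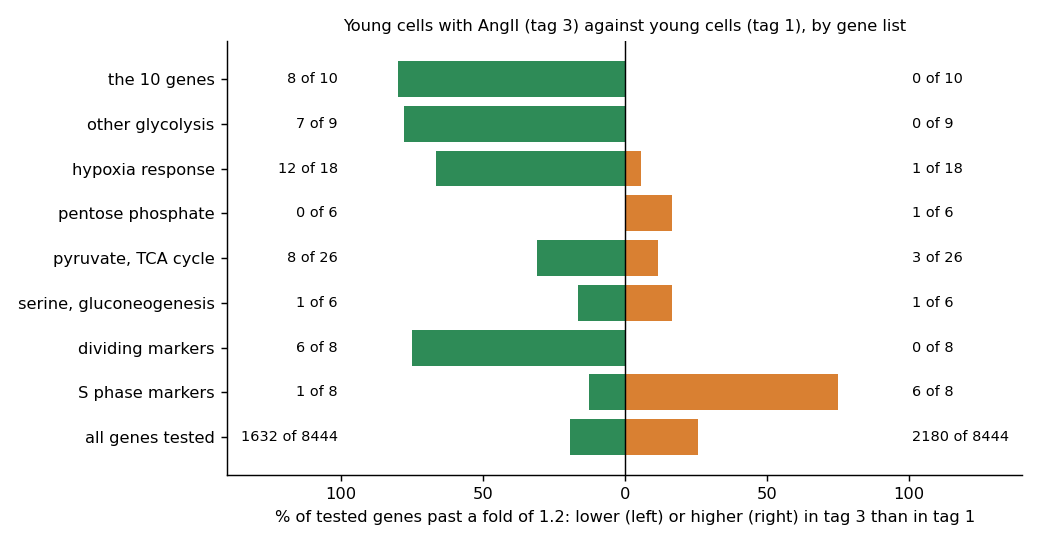
Share of the tested genes of each list that were lower (left) or higher (right) in tag 3 (young with AngII) than in tag 1 (young) past a fold of 1.2, with the counts beside the bars and all 8444 genes tested at the bottom. Glycolysis, the hypoxia list and the dividing markers reach far to the left, with 8 of 10, 7 of 9, 12 of 18 and 6 of 8 genes. The pentose phosphate pathway does not. The list labelled hypoxia response also holds HIF pathway genes.

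Cell cycle transcripts and the mitochondrial share also moved between tags 1 and 3. Of 8 markers of dividing cells, 6 were lower in tag 3 (summed level 484 CPM against 745 in tag 1), and of 8 S phase markers 6 were higher (394 against 316 CPM). Among cells with at most 1 UMI of the dividing markers, 773 in tag 3 and 1805 in tag 1, the ratio of the 10 genes together was 0.733. It was 0.745 among all cells. This set was added after seeing the data and depends on the depth of a cell. The part of the cell cycle in the contrast was not tested. The share of UMIs from the 13 mitochondrial genes had a median of 0.224% in tag 3 and 1.08% in tag 1, and 60.2% and 31.0% of the cells were under 0.5%. Among cells under 0.5% the ratio was 0.778 (0.767 to 0.790), and among cells at 1% or more it was 0.752 (0.738 to 0.766), against 0.745 among all. Markers of other cell types moved as well, since 2 of 3 fibroblast markers were higher and 1 lower in tag 3 (median 1.49, summed levels of 724 against 526 CPM) and 2 of 2 epithelial markers were higher (median 2.36, 104 against 55.8 CPM), and their part in the differences was not tested. For Slc2a1 the ratio was 0.710 (0.614 to 0.820) in cells under 0.5% and 0.923 (0.784 to 1.08) at 1% or more. These intervals overlap, the second includes 1, and the difference between them was not tested.

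Old cells differed from young cells less than AngII-treated cells did in the summed level, and single genes lay on both sides of 1. In tag 2 (old) the 10 genes summed to 4404 CPM (4350 to 4460), 0.908 (0.895 to 0.920) of tag 1 (young). Of the 10, 2 were higher past a fold of 1.2 and 2 lower, where 24.3% of all genes tested were higher and 21.4% lower, so the count was close to the background. The median ratio was 0.875, against 1.02 for all genes tested.

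The 2 genes higher in old cells were Slc2a1 and Hk2. Slc2a1 stood at 86.2 CPM (78.7 to 94.3) in tag 2 against 56.6 in tag 1, a ratio of 1.52 (1.37 to 1.69). Hk2 stood at 129 CPM (120 to 139) against 107, a ratio of 1.21 (1.11 to 1.32). Both intervals lie above 1, but that of Hk2 reaches below the fold of 1.2, and with cells thinned to 5000 UMIs Hk2 was at 1.13, inside the fold.

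The 2 genes lower in old cells were Pfkp, at 16.5 CPM (13.3 to 20.2) in tag 2 against 34.2 in tag 1, a ratio of 0.482 (0.384 to 0.598), and Pgk1, at 441 CPM (424 to 459) against 567, a ratio of 0.779 (0.746 to 0.813). The Pfkp value in tag 2 rests on 92 UMIs. Pgk1 lies on the X chromosome, and in cells with Y-linked transcripts but without Xist its ratio was 0.842, inside the fold. The remaining 6 enzymes lay within the fold, Aldoa, Ldha, Tpi1, Eno1 and Gapdh at ratios of 0.836 to 0.919 and Pkm at 1.04. Aldoa was near the edge, and passed the fold in 7 of 10 alternatives, with ratios of 0.734 to 0.824, while Eno1 passed it in 3 at 0.817 to 0.832 and Tpi1 in 1 at 0.832. Without doublets 4 of the 10 genes were lower past the fold in place of 2. Pfkl, the only other phosphofructokinase expressed enough to compare, was lower too, with a ratio of 0.702 (0.596 to 0.824). Ldhb, the heart-type lactate dehydrogenase subunit, was higher at 65.6 CPM against 44.2, a ratio of 1.48 (1.31 to 1.67).

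Around the pathway, 1 of 9 other glycolysis genes was higher in old cells (Ldhb) and 3 were lower. The list of HIF pathway and hypoxia-response genes was mixed, with 4 of 18 higher and 5 lower. Egln3, an oxygen-sensing prolyl hydroxylase, had a ratio of 1.88 (1.58 to 2.23), while P4ha2, a collagen prolyl hydroxylase, had 0.300 (0.259 to 0.345). Bnip3 and Higd1a were lower, at 0.638 and 0.591. Hif1a differed by less than the fold, at 1.12 (1.07 to 1.17), as did Myc at 1.05 (0.868 to 1.25), whereas Txnip was at 0.667 (0.572 to 0.775). Insr, the insulin receptor, had a ratio of 1.78 (1.55 to 2.05).

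VSMC markers moved in the same comparison, with 5 of 7 higher and 1 lower in tag 2 and summed levels of 2133 CPM against 1316. Of the fibroblast markers 2 of 3 were lower (546 against 526 CPM summed), and of the epithelial markers 1 of 2 was higher and 1 lower (47.9 against 55.8 CPM). The part of these markers in the differences was not tested. The contrast in Pfkp held within both ranges of the mitochondrial share, with ratios of 0.458 (0.275 to 0.721) in cells under 0.5% and 0.478 (0.364 to 0.618) at 1% or more. Slc2a1 was at 1.30 (1.02 to 1.63) and 1.55 (1.36 to 1.76). Pgk1 was nearer to 1 in cells under 0.5%, of which tag 2 has only 93, at 0.925 with an interval that includes 1, against 0.734 (0.695 to 0.774) at 1% or more. Since both comparisons above use tag 1 as the control, a level particular to that culture enters both.

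**Figure D3:**
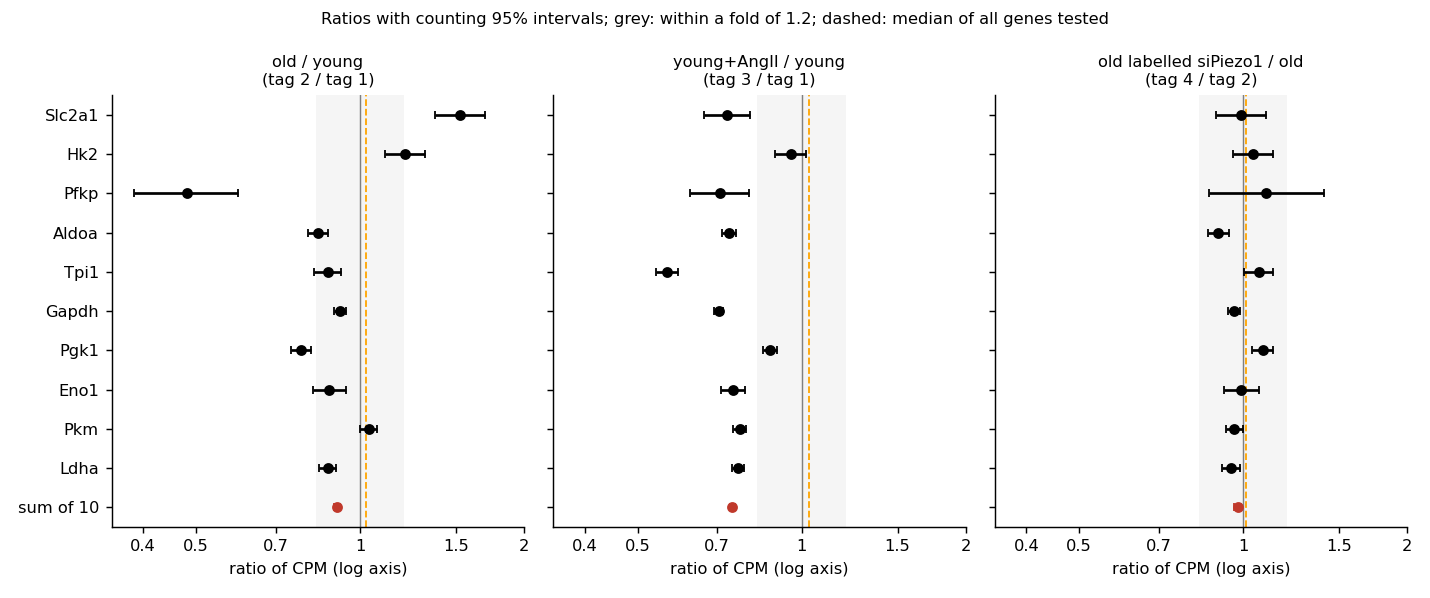
Ratio of CPM (log axis) for each gene and their sum in 3 comparisons, with 95% counting intervals, the band within a fold of 1.2 in grey and the median of all genes tested as a dashed line. In the middle panel 8 of the 10 genes lie left of the band, in the left panel Slc2a1 and Hk2 lie right of it and Pfkp and Pgk1 left of it, and in the right panel all 10 points lie inside it.

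Old cells labelled siPiezo1 were close to old cells. The 10 genes summed to 4302 CPM (4270 to 4334) in tag 4 against 4404 in tag 2, a ratio of 0.977 (0.963 to 0.991). Of the 10, 0 passed a fold of 1.2 in either direction, where 10.9% of all genes tested were higher and 7% lower. That count is thus not far from the background. Among genes of at least 50 CPM, 0 of 9 members passed it, against 5.96% of 3289 genes higher and 4.68% lower. Ratios ran from 0.901 (0.861 to 0.942) for Aldoa to 1.10 (0.867 to 1.40) for Pfkp. Slc2a1 was at 85.5 CPM (81.0 to 90.1) in tag 4, a ratio of 0.991 (0.893 to 1.10), and Hk2 at 135 CPM (129 to 140), a ratio of 1.04 (0.956 to 1.13). Pfkp, with 92 UMIs in tag 2 and 292 in tag 4, could differ by more at this depth, and its ratio passed the fold at 1.54 with a stricter tag rule, 1.34 in cells under 0.5% mitochondrial UMIs and 1.30 in cells with at most 1 UMI of the dividing markers. Among cells with Y-linked transcripts but without Xist, Eno1 (0.810) and Pkm (0.811) passed it downwards. Of 9 other glycolysis genes, 2 were higher and 0 lower (Pfkl at 1.29), with a median ratio of 1.06 against 1.01 for all genes tested. In the same comparison 6 of 7 VSMC markers were lower in tag 4 and 3 of 3 fibroblast markers higher (750 against 546 CPM summed). The part of these markers was not tested.

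Within each tag the genes were then followed over the mitochondrial share of the cells, after sorting the cells into 5 equal parts and counting per 1000000 non-mitochondrial UMIs, so that mitochondrial UMIs do not dilute the value. Among all cells of a tag, the 10 genes together differed between parts beyond counting error, without 1 direction shared by the tags. In tag 1 they stood at 4518, 4891, 5291, 5162 and 4755 from the part with the lowest share to that with the highest, so the middle part was the highest. In tag 3 they stood at 3569, 3510, 3621, 3685 and 3859, highest in the top part. The top part against the bottom part gave 1.05 (1.03 to 1.07) for tag 1, 0.911 (0.875 to 0.947) for tag 2, 1.08 (1.05 to 1.11) for tag 3 and 1.01 (0.988 to 1.04) for tag 4, while the median of all genes was 1.08 to 1.10. Among cells with 1 to 15% mitochondrial UMIs all 4 tags had ratios below 1, at 0.842, 0.822, 0.936 and 0.946 in tags 1 to 4. The direction thus turned in tags 1, 3 and 4 when cells under 1% were left out. Free RNA from near-empty barcodes carried a mitochondrial share of 1.70% and the 10 genes at 5502 CPM, above every tag, and its part in these profiles was not tested.

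Slc2a1 was the member that was higher in the top part of all 4 tags past a fold of 1.2. Its level per 1000000 in the bottom and top part was 48.6 and 67.8 in tag 1, 72.6 and 100.2 in tag 2, 31.0 and 59.1 in tag 3, and 63.9 and 104.9 in tag 4. The ratios were 1.39 (1.18 to 1.65), 1.38 (1.04 to 1.84), 1.90 (1.47 to 2.48) and 1.64 (1.38 to 1.96). Of all genes, 32.6%, 37.2%, 37.8% and 35.1% were also higher past that fold in tags 1 to 4, and Slc2a1 ranks above 86.3%, 76.4%, 95.5% and 92.7% of them. In every tag the bottom part was the deepest in UMIs, with a median of 7861 against 6480.5 in the top part of tag 1 and 10664 against 8040.5 in tag 3. Across single cells thinned to equal depth, Spearman's rho of Slc2a1 with the mitochondrial share was 0.0232, 0.0483, 0.0609 and 0.0733 in tags 1 to 4. These values lay above 65.0%, 74.6%, 89.2% and 93.7% of all genes. Slc2a1 had the highest rho of the members in tags 2 and 4 only. In tag 1 Tpi1 (0.0662), Ldha (0.0534) and Eno1 (0.0332) were above it. In tag 3 Pkm (0.0910), Tpi1 (0.0847) and Eno1 (0.0744) were above it.

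**Figure D4:**
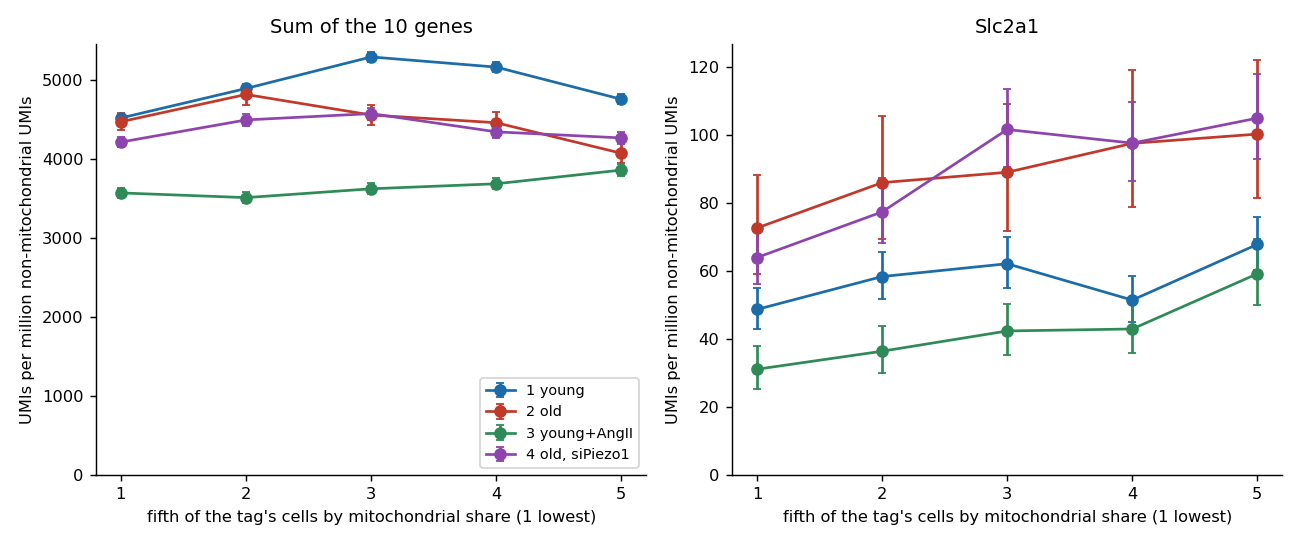
UMIs per 1000000 non-mitochondrial UMIs (y axis, from 0) of the 10 genes together (left) and of Slc2a1 (right) in 5 equal parts of each tag's cells sorted by mitochondrial share (x axis), with 95% counting intervals. The sum differs between parts without a direction shared by the tags, and tag 3 lies below the other tags in each part. Slc2a1 is higher in the top than in the bottom part of all 4 tags.

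Members were also compared across single cells. Spearman's rho between pairs of members, with each cell thinned to 4000 non-mitochondrial UMIs, was highest for Gapdh and Ldha (mean over tags 0.215), followed by Ldha with Tpi1 (0.171) and Gapdh with Aldoa (0.166). The highest pair with Hk2, Slc2a1 or Pfkp was Tpi1 with Hk2 at 0.0605, next to Eno1 with Tpi1 at 0.0619, so the values ran on without a gap. Cells of a tag share 1 library, and low counts hold such values near 0, so these are descriptions. The genes outside glycolysis whose level in single cells was most like the summed members (Pearson's r, mean over the 4 tags, 484 to 2808 cells each) were Fam162a (0.344), Mif (0.285), Lgals1 (0.196), Ppia (0.190), Ftl1 (0.175), Rpl41 (0.171), Nme2 (0.171), Higd1a (0.169), Bnip3 (0.169) and Esd (0.159). Over 8432 genes the median was -0.01 and the 90th percentile 0.0342. Fam162a stood between 0.315 and 0.402 in every tag, whereas Ftl1 ranged from 0.00201 in tag 1 to 0.288 in tag 3.

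The cells were also grouped into 12 clusters, computed without the 10 genes, the other glycolysis genes and the mitochondrial genes, so that the members' levels were not used to make them. The summed level ran from 1342 CPM (1237 to 1453) to 6137 CPM (6030 to 6245), a wider range than between the tags. The highest was cluster 8, led by Lce3f, Prl8a9 and Sprr1a (517 cells), with Gapdh at 2400 CPM, Aldoa at 777 and Pgk1 at 692. In that cluster the entry genes went the other way, with Slc2a1 at 11.8 CPM and Hk2 at 32.0, each the lowest of the 12 clusters. Its cells held a median of 3410 UMIs, fewer than any other cluster. The lowest was cluster 11, led by Zfp804a, Gm12153 and Gpr39 (88 cells), with Gapdh at 255 CPM and Ldha at 142, while Hk2 at 106 CPM was near its level in the tags.

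Cluster 7 (Cdkn3, Psmb9, Ckap2l), which held 17.7% of tag 1 and no cell of tag 2, 3 or 4, had the second highest sum at 5360 CPM (5295 to 5426), with Ldha at 908 CPM, and all 8 dividing markers were above the rest there (2371 CPM summed). Cluster 1 (Ifit3, Ifit3b, F830016B08Rik), which held 60.5% of tag 1, was at 5038 CPM. Pfkp was highest in cluster 7 at 41.4 CPM, cluster 11 at 39.9 and cluster 1 at 36.7. Cluster 9 (Lmo7, Il16, C1qtnf7), with 18.1% of tag 4, had the highest Slc2a1 at 121 CPM and Hk2 at 157 CPM. Cluster 5, VSMC-like by Actg2, Myh11 and Cnn1, was at 4463 CPM, and cluster 2, dividing-like by Hist1h1b, Mki67 and Hist2h2ac with all 8 dividing markers above the rest (2208 CPM summed), at 4177 CPM.

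Most cells of tag 3 were in cluster 3 (Npy, Lce1g, Wnt2), at 3540 CPM. There the 820 cells of tag 3 and the 70 cells of tag 1 had nearly the same summed level, 3546 CPM (3504 to 3587) and 3544 CPM (3394 to 3699). In cluster 0 (Igfbp5, Nxph1, Edil3) the 52 cells of tag 1 were at 3834 CPM (3655 to 4020). The 220 cells of tag 2 there were higher, at 4342 CPM (4253 to 4432), the reverse of the order among all cells. Elsewhere clusters and tags overlap so far that the level of a cluster and that of its tag cannot be told apart for clusters 1 and 7. In cluster 2, tags 2 and 4 were within counting error of each other, at 4220 CPM (4116 to 4327) and 4184 CPM (4125 to 4244). In cluster 5 tag 2 was higher than tag 4, at 4695 CPM (4581 to 4810) against 4360 (4271 to 4451).

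**Figure D5:**
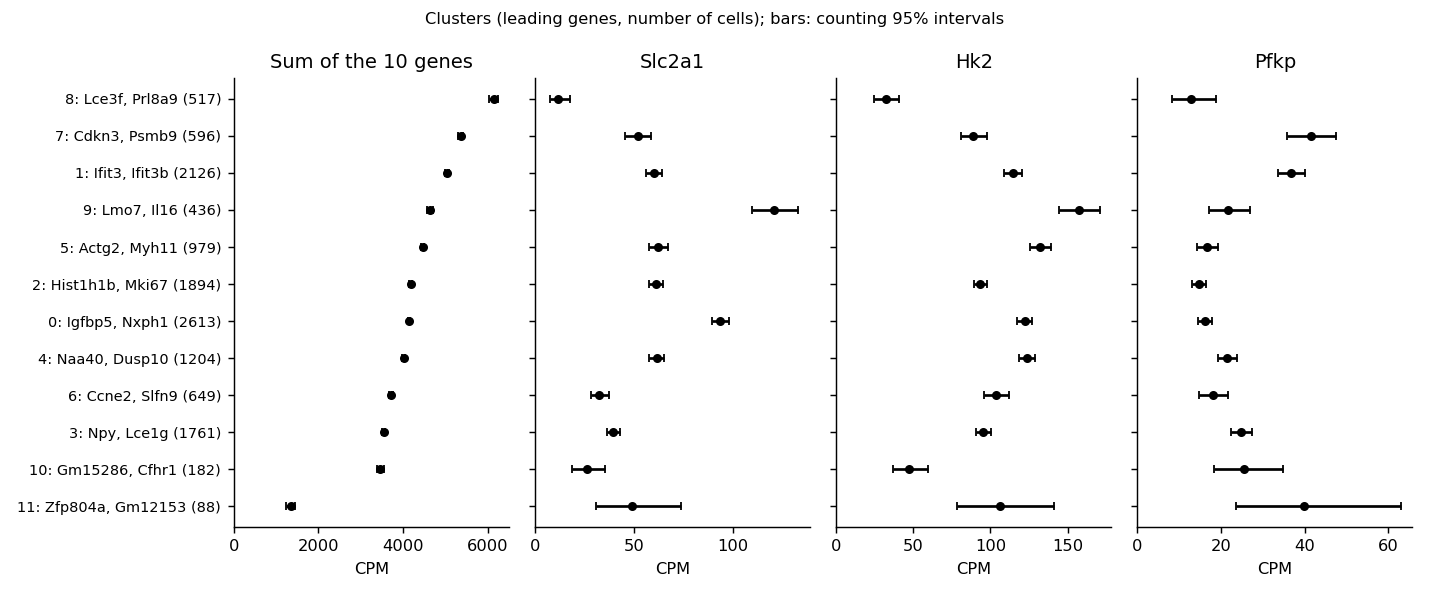
Level in CPM of the 10 genes together, Slc2a1, Hk2 and Pfkp (x axes, from 0) in 12 clusters (y axis, named by 2 leading genes, with the number of cells), with 95% counting intervals and clusters in the order of the sum. Cluster 8 is highest for the sum and lowest for Slc2a1 and Hk2, and cluster 9 is highest for both of these.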

How the data were processed

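Cultured mouse aortic VSMCs of 4 groups were hashed and sequenced as 1 droplet library. The authors deposited raw UMI counts, made with Cell Ranger 4, for 32285 genes and 4 hashtags over 2472397 barcodes with no cell filter. The build and annotation behind the counts are not given in sources used here. A cell had at least 200 genes and 2218 UMIs, a floor set by dividing by 10 the UMI total at percentile 99 among the 10000 deepest barcodes. Near-empty barcodes held 1 to 100 UMIs. A cell took a tag when exactly 1 of the 4 tags passed its cutoff (36, 52, 61 and 41 UMIs). With 1 culture per group, cells were not used as replicates and no p-values were computed.

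Levels are CPM with exact Poisson intervals, and ratios have exact conditional binomial intervals (scipy 1.17.1), both at 95%. The ratio and its interval were run on simulated counts with counting error only. Those counts hold no spread between cells or cultures, so they cannot show how the intervals do against it. Genes with a mean of at least 10 CPM over the 4 tags were compared, at folds of 1.2 and 1.5. Clusters used scanpy 1.11.5 (2000 variable genes, 30 components, 20 neighbours, Leiden resolution 0.8). Scrublet called 3058 cells (23.4%) doublets, far above the expected rate of 0.1, and they were kept in the values reported. Of cluster 4, which was 94.9% doublets, no level is named.

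The 10 genes are always named. Of the lists, genes past a fold of 1.5 with at least 10 CPM could be named, with Hif1a, Myc and Txnip, and of all other genes the 10 most like the members and the leading 3 of a cluster. Taldo1, Vegfa and Ldhb lie inside that fold and were named after their values were seen, as were the few markers. The members and lists were chosen with earlier results of these data known. Alternatives set at the outset were the tag rule, doublet removal, a mitochondrial range, thinning to 5000 UMIs, the median over cells, scaling and the denominator. Other assays of the study were not analysed here.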

Additional observations from a re-analysis of the deposited data

How the results depend on the processing

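Values are log2 ratios of the 10 genes summed. Old against young cells (tag 2 to tag 1) stood at -0.14, and at -0.11 with a tag at least 3 times the next, -0.19 without doublets, -0.18 in cells with 1 to 15% mitochondrial UMIs, -0.19 as a median over cells, -0.17 with median-of-ratios scaling and -0.053 in cells under 0.5% mitochondrial UMIs. AngII-treated against young cells (tag 3 to tag 1) stood at -0.42, and at -0.50 without doublets, -0.47 as a median over cells and by median-of-ratios scaling, -0.45 in cells with at most 1 UMI of the dividing markers, -0.36 under 0.5% and -0.45 in cells with Y-linked transcripts but without Xist (Y-only cells). Tag 4 to tag 2 stood at -0.03, and at 0.000879 as a median over cells, -0.071 under 0.5% and -0.12 in Y-only cells. The sets by dividing markers, by under 0.5% and by Xist were added after seeing the data.

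The top against the bottom of 5 equal parts by mitochondrial share gave 0.040 in tag 1 and -0.032 in tag 4 over UMIs of all genes, and -0.035 in tag 4 without doublets. Among cells with 1 to 15% mitochondrial UMIs it gave -0.25 in tag 1, -0.28 in tag 2, -0.10 in tag 3 and -0.080 in tag 4. The main values were 0.074, -0.14, 0.11 and 0.018 in tags 1 to 4, so its sign turned there in tags 1, 3 and 4. In tag 4 the sign also turned over UMIs of all genes and without doublets. Of single genes, only ratios of tag 4 to tag 2 changed sign. Under 0.5% these were Pgk1 (-0.059), Tpi1 (-0.074) and Hk2 (-0.057), in Y-only cells Pgk1 (-0.14), Aldoa (0.15), Tpi1 (-0.20) and Pfkp (-0.13), and with the stricter tag Pkm (0.026), Eno1 (0.14) and Slc2a1 (0.25). Eno1 and Slc2a1 also turned without doublets (0.025 and 0.10) and in cells with at most 1 UMI of the dividing markers (0.076 and 0.095), and Slc2a1 in the 1 to 15% range (0.083). The cause of these changes was not tested.

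In old against young cells, Hk2 left the fold of 1.2 with thinning, in the 1 to 15% range, under 0.5% and with median-of-ratios scaling, with ratios of 1.13 to 1.19, and Pgk1 left it under 0.5% (0.925) and in Y-only cells (0.842). Calls were also gained: lower Aldoa in 7 alternatives (0.734 to 0.824), Eno1 in 3 and Tpi1 in 1, so that between 1 and 4 of the 10 genes were lower and, where all 10 gave a value, between 1 and 2 higher. Slc2a1 left the fold in tag 3 to tag 1 in the 1 to 15% range (0.923), and in tag 4 to tag 2 Pfkp passed it in 3 alternatives (1.30 to 1.54) and Eno1 and Pkm in Y-only cells. Over the alternatives for old against young cells (tag 2 to tag 1), Slc2a1 ranged from 1.30 to 1.72 and Pfkp from 0.368 to 0.571. Among genes of at least 50 CPM, 7 of 9 members were lower in tag 3 than in tag 1, against 17.1% of 3289 genes. With 5 coarser clusters the cluster led by Lce3f was again the highest, at 6181 CPM. Medians over cells gave no value where the median was 0 (Hk2, Slc2a1 and Pfkp against tag 1, and Pfkp in tag 4 to tag 2). No paired analysis was possible because each group is 1 culture, with no replicate to leave out. Depth limits Pfkp most.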
